A study of Saccharomyces cerevisiae with 10 samples.

Results

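The genes described here encode the aminoacyl-tRNA synthetases of the yeast *Saccharomyces cerevisiae*, together with *ARC1*, whose product binds a pair of these enzymes. They were taken by systematic name from the 6607 genes of the count table, which gave 37 genes in all. Of these, 22 encode cytosolic enzymes, 14 encode enzymes of the mitochondrion, and *ARC1* was counted in neither compartment. All 37 passed the filter on low counts and were among the 5856 genes tested.

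RNA was sequenced from 10 cultures in 3 groups. The first group, called *sup35-218* at stage 3, was strain 218-L-14-D1690 with 3 cultures. Its only source of the release factor eRF3 was the plasmid pRSU1-218, which has the *LEU2* marker and carries the nonsense allele *sup35-218*. The second group, called *SUP35* at stage 3, was strain L-14-D1690 with 4 cultures, in which the wild-type allele had likewise been brought in on a *LEU2* plasmid by plasmid shuffling. The third group, called *SUP35* at stage 1, was the initial strain U-14-D1690 with 3 cultures, and its wild-type allele was on the *URA3* plasmid pRSU2. The cells of all groups lacked the chromosomal gene, written SUP35::HIS3MX, and all had the nonsense alleles ade1-14(UGA) and trp1-289(UAG), besides his3-d200, ura3-52 and mutant alleles of *LYS2* and *LEU2*. The *LEU2* plasmids and the growth without leucine at stage 3, or without uracil at stage 1, are as the study's methods give them, whereas the sample labels name pRSU2 for both *SUP35* groups and SC medium for all cultures. The *SUP35* groups differ in plasmid marker, selective medium and shuffling all at once, and these cannot be told apart. How many clones the cultures of a group came from is not given in the sources used here, so p-values measure the spread between these cultures.

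The plasmid markers went against the plasmid that the sample labels name for *SUP35* cultures of stage 3. *URA3* had 59.2 to 79.8 normalized CPM, counts scaled to a common library size, in *sup35-218* cultures, 71.9 to 94.4 CPM in *SUP35* cultures of stage 3 and 829 to 1091 CPM at stage 1, so the stage 3 *SUP35* cultures had the low level of the *sup35-218* cultures. *SUP35* itself, where a count per gene does not separate the alleles, had 1833 to 2185 CPM in *sup35-218* cultures, against 505 to 809 CPM in *SUP35* cultures of stage 3. *LEU2*, the marker of the stage 3 plasmids, had 6453 to 7221 CPM in *sup35-218* cultures, against 1733 to 2743 CPM in *SUP35* cultures of stage 3, and the part of this difference in the results below was not tested. The pheromone genes went against the labelled mating type MATa, since *MF(ALPHA)1*, an alpha-specific gene, had 449 to 828 CPM over all cultures. The a-specific *MFA1* had 2.54 to 4.81 CPM in *sup35-218* cultures, 5.5 to 21.3 CPM in *SUP35* cultures of stage 3 and 39.2 to 74.7 CPM at stage 1. The receptor genes were less clear, since at stage 1 the a-specific *STE2* (71.3 to 233 CPM) overlapped the alpha-specific *STE3* (182 to 273 CPM). In *sup35-218* cultures *STE2* had 12.1 to 21.6 CPM and *STE3* 84.3 to 121 CPM. The cause of these differences was not tested. Total counts were 3044096 to 4861009 per culture, and replicates differed by more than counting alone would give (chi-square per degree of freedom 6.72 to 23.7).

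Aminoacyl-tRNA synthetases join each amino acid to its own tRNAs and so supply the ribosome with charged tRNA. In yeast, protein synthesis in the cytosol and in the mitochondrion mostly uses separate enzymes, all encoded in the nucleus, and a few genes serve both compartments. The enzymes fall into classes I and II, which have unrelated catalytic folds. Uncharged tRNA is sensed by the kinase Gcn2, which raises translation of the transcription factor Gcn4, and several synthetase genes are known among the targets of Gcn4.

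In 5 of the 22 cytosolic genes, *ALA1*, *GRS1*, *HTS1*, *VAS1* and *CRS1*, the same gene also makes the mitochondrial enzyme. For *ALA1* and *GRS1* the longer, mitochondrial form is known to start at codons other than ATG upstream of the main start codon, and the 30 bases around these codons, read from the S288C genome of RefSeq (R64), are shown because a count per gene joins both forms. The upstream start codons are in capitals, the first of them 25 codons before the ATG in *ALA1* (XV, positions 949161 to 949190, reverse strand) and 23 codons before it in *GRS1* (II, positions 483419 to 483448, reverse strand).
ALA1: gacaagACGACGtcaactaccggattaagg
GRS1: tttcaagaaaaaTTGtcgttcttcaatatc
Changes in these genes, given below, are therefore those of the cytosolic and mitochondrial forms together.

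Per length of gene, cytosolic enzymes had the higher mRNA levels in every group. The median over the 22 cytosolic genes was 177 CPM per kb in *sup35-218* cultures, 229.9 CPM per kb in *SUP35* cultures of stage 3 and 311 CPM per kb at stage 1. Over the 14 mitochondrial genes it was 41.1, 39.7 and 34.6 CPM per kb in the same order of groups, and over all genes tested 65.4, 66.2 and 67.8 CPM per kb. The median of the cytosolic genes thus differed between the groups, while that of all genes stayed between 65.4 and 67.8 CPM per kb. A median of levels is not a median of changes. Between the *SUP35* groups the median log2FC of the 22 cytosolic genes was -0.03, and 14 of them were not called. *KRS1*, for lysine, was the most abundant of the 37 mRNAs in each group, at 773, 1388 and 1149.6 CPM per kb. *GRS2*, a second gene for glycine, and *GLN4*, for glutamine, were the least abundant cytosolic ones, *GRS2* at 57.9 CPM per kb in *sup35-218* cultures and *GLN4* at 58.9 CPM per kb in *SUP35* cultures of stage 3 and 62.4 CPM per kb in those of stage 1. *MSK1*, the mitochondrial lysine enzyme, led its compartment at 85.3 CPM per kb in *sup35-218* cultures and 108 CPM per kb in *SUP35* cultures of stage 3, and was second to *MSW1*, for tryptophan, with 88.8 CPM per kb, at stage 1.

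Summed over the 22 genes, the cytosolic level was 9399, 10093 and 8639 CPM in the *sup35-218* cultures, against 12287, 13094, 12113 and 13104 CPM in *SUP35* cultures of stage 3. The stage 1 cultures had 13144, 13095 and 13765 CPM. All *sup35-218* cultures therefore lay below all *SUP35* cultures, and the means were 9377 ± 727 CPM (SD, n = 3), 12649.6 ± 524 CPM (SD, n = 4) and 13335 ± 373 CPM (SD, n = 3). The summed level of the 14 mitochondrial genes was 1045, 1063 and 1024 CPM in *sup35-218* cultures, against 943, 1004, 965 and 1179 CPM in *SUP35* cultures of stage 3, so these groups overlapped. At stage 1 the mitochondrial sum was 909, 957 and 904 CPM. Replicate 4 of *SUP35* at stage 3 had the highest level of its group in 13 of the 14 mitochondrial genes and in 12 of the 22 cytosolic ones. Among *sup35-218* cultures, replicate 3 was the lowest in 18 of the 22 cytosolic genes. Such ranks were not counted over all genes tested, so whether they are particular to these genes is not known. *SES1* for serine was not called between the alleles at stage 3 (log2FC 0.15). Without replicate 4 of *SUP35* at stage 3 it was called (log2FC 0.33, adjusted p = 0.05, just under the threshold before rounding), and also against stage 1 (log2FC 0.38, adjusted p = 0.023). CPM are shares of a library, so a change in total mRNA per cell is not measured by them.

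**Figure D1:**
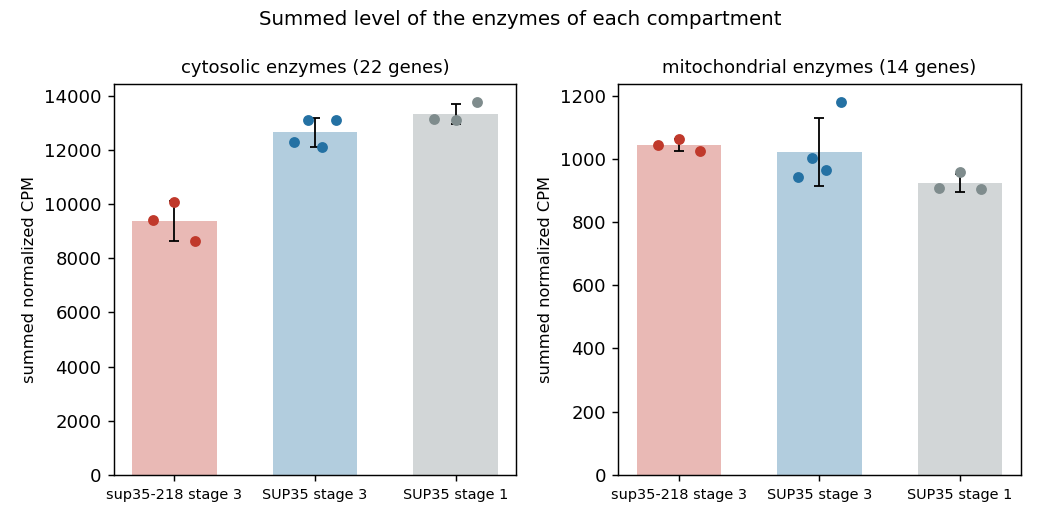
Summed normalized CPM of the 22 cytosolic (left) and the 14 mitochondrial synthetase genes (right) by group, with points for single cultures, bars for group means and error bars of 1 SD. The cytosolic sums of *sup35-218* cultures (8639 to 10093 CPM) lie below all *SUP35* cultures, and the mitochondrial sums (1024 to 1063 CPM) lie within the range of *SUP35* cultures at stage 3.

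The alleles were compared at stage 3, where *sup35-218* and *SUP35* cultures have the same plasmid marker. Of the 22 cytosolic genes, 11 fell in *sup35-218* cultures, 3 rose and 8 were not called, a call being an adjusted p under 0.05 in the quasi-likelihood test of edgeR, adjusted by Benjamini-Hochberg across every gene tested. Over all genes tested, 20.7% fell and 18.5% rose, 39.2% in all. Of the 14 mitochondrial genes, 3 rose, 1 fell and 10 were not called. *ARC1* was not called. The median log2FC was -0.26 over the cytosolic and 0.04 over the mitochondrial genes, beside -0.01 over all genes tested. With the cutoff on size that the study used, a log2FC above 0.5 in either direction (a differentially expressed gene, DEG), 7 cytosolic genes were DEGs, all of them lower, and 1 mitochondrial gene was a higher DEG, while 12.6% of all genes tested were lower and 10.7% higher DEGs. The levels of the stage 3 groups did not overlap for 13 lower and 3 higher cytosolic genes and for 1 lower and 4 higher mitochondrial genes, where 22.8% and 20.9% of all genes tested separated in these directions. Without the dual-targeted genes the cytosolic median was -0.38.

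**Figure D2:**
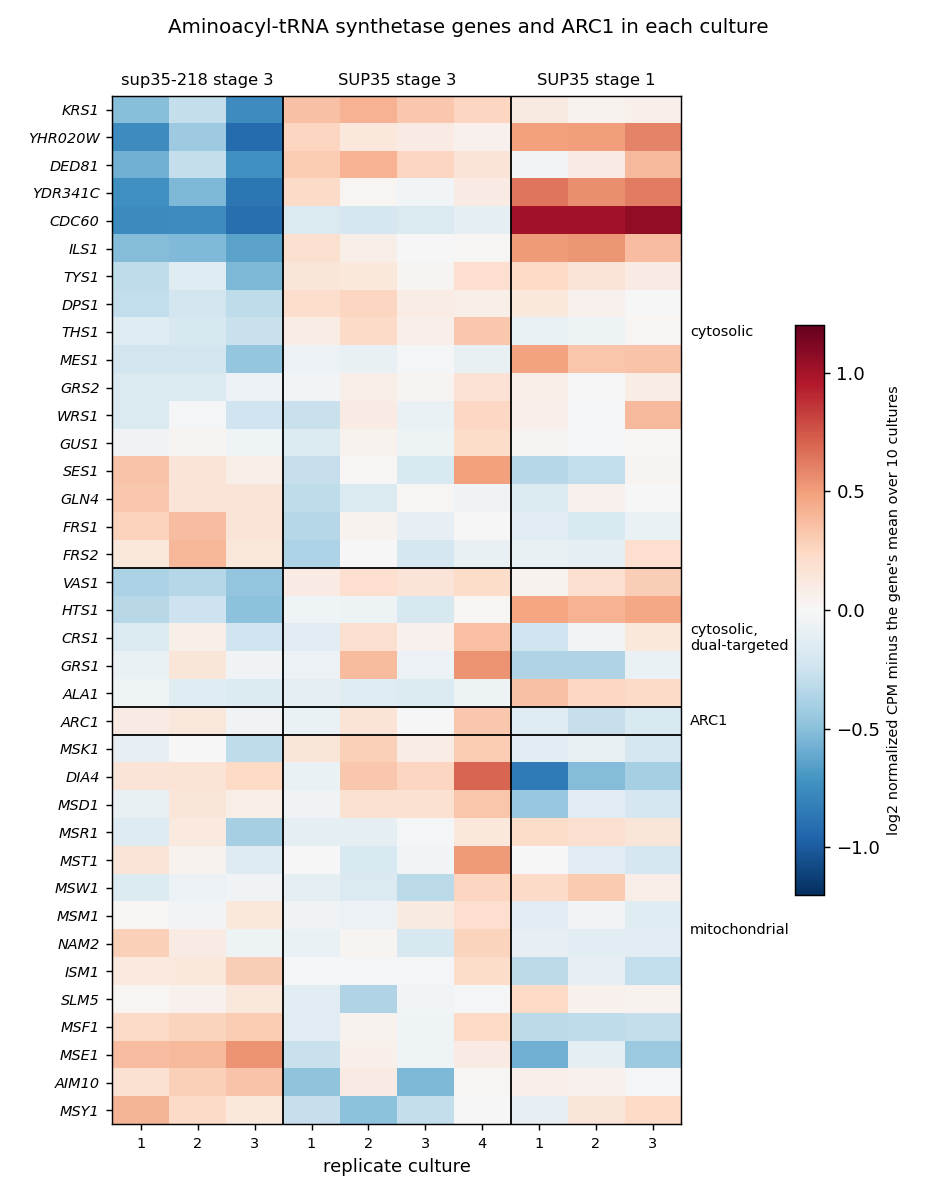
Level of each of the 37 genes (rows, by compartment and then by log2FC between the stage 3 groups) in each of the 10 cultures (columns), as log2 normalized CPM minus the mean of that gene over all cultures. Blue cells mark *sup35-218* cultures for most cytosolic genes at the top, such as *KRS1* and *CDC60*, whereas for *MSE1*, *AIM10* and *MSY1* at the bottom the *sup35-218* cultures are red.

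The largest fall was in *KRS1* (YDR037W, chromosome IV, positions 525440 to 527215, forward strand), the lysine enzyme. It had 1367, 1599.9 and 1153 CPM in *sup35-218* cultures, against 2479.9, 2604, 2444 and 2334 CPM in *SUP35* cultures of stage 3. The highest *sup35-218* culture lay far below the lowest *SUP35* culture, and the log2FC was -0.84 (SE 0.13, adjusted p = 0.00027). *YHR020W*, the cytosolic proline enzyme (VIII, 143996 to 146062, forward), had 277, 346 and 247 CPM in *sup35-218* cultures, against 559, 510.4, 501 and 484 CPM in *SUP35* cultures (log2FC -0.82, SE 0.12, adjusted p = 0.00019). Its neighbour *DED81*, the asparagine enzyme (VIII, 141894 to 143558, reverse), is transcribed away from it and had 426, 521 and 381 CPM in *sup35-218* cultures, against 781, 844, 759 and 707 CPM in *SUP35* cultures (log2FC -0.80, SE 0.14, adjusted p = 0.00053). In all of these genes replicate 2 was the highest and replicate 3 the lowest *sup35-218* culture, and no culture overlapped the other group. The arginine enzyme *YDR341C* (IV, 1151803 to 1153626, reverse) had 238, 273 and 217 CPM in *sup35-218* cultures, against 465, 403, 388 and 425 CPM in *SUP35* cultures (log2FC -0.79, SE 0.11, adjusted p = 0.00012).

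The leucine, isoleucine and valine enzymes, which handle the branched-chain amino acids, all fell as well. *CDC60* for leucine (XVI, 246990 to 250262, forward) had 293, 296 and 266 CPM in *sup35-218* cultures, against 441, 432, 442 and 462 CPM in *SUP35* cultures of stage 3 (log2FC -0.64, SE 0.10, adjusted p = 0.00021). *ILS1* for isoleucine (II, 81043 to 84261, reverse) had 525, 521 and 481 CPM in *sup35-218* cultures, against 860.3, 789.7, 750.2 and 757 CPM in *SUP35* cultures (log2FC -0.63, SE 0.11, adjusted p = 0.00046). *VAS1* for valine (VII, 672186 to 675500, forward), which makes both the cytosolic and the mitochondrial enzyme, had 937, 960.4 and 876 CPM in *sup35-218* cultures, against 1303, 1404, 1352 and 1417 CPM in *SUP35* cultures (log2FC -0.57, SE 0.11, adjusted p = 0.0014). These 3 genes varied little within the groups, and none of their *sup35-218* cultures came near a *SUP35* culture. The calls of *KRS1*, *YHR020W*, *DED81*, *YDR341C*, *CDC60*, *ILS1* and *VAS1* held in all 17 alternatives of normalization, filter, test and samples. The glmTreat test against the DEG cutoff itself is not among these 17, and it left 3 cytosolic DEGs in place of 7.

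Smaller falls were measured in *TYS1* for tyrosine (log2FC -0.45, adjusted p = 0.0051), *DPS1* for aspartate (-0.43, adjusted p = 0.0038), *THS1* for threonine (-0.38, adjusted p = 0.012) and *HTS1* for histidine (-0.28, adjusted p = 0.035). Those of *TYS1* and *DPS1* were called in all 17 alternatives. *THS1* was no longer called without replicate 2 or replicate 3 of *sup35-218* (log2FC -0.34 and -0.32, adjusted p = 0.059 and 0.069). The call of *HTS1* was the least stable: its levels did not overlap, at 299, 317 and 267 CPM in *sup35-218* cultures and 362, 360.2, 329 and 381 CPM in *SUP35* cultures, but 10 of 17 alternatives lost it. These included leaving out any of the *sup35-218* cultures, replicate 1, 2 or 4 of *SUP35* at stage 3 or replicate 2 of *SUP35* at stage 1, with a log2FC between -0.30 and -0.19 and an adjusted p of up to 0.21.

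The cytosolic genes that rose were *FRS2* and *FRS1*, the alpha and beta subunits of the phenylalanine enzyme, and *GLN4*. *FRS2* (VI, 93499 to 95010, reverse) had 277, 333 and 278 CPM in *sup35-218* cultures, against 195, 253, 219 and 238 CPM in *SUP35* cultures of stage 3 (log2FC 0.39, SE 0.12, adjusted p = 0.018). The log2FC of *FRS1* was 0.36 (SE 0.10, adjusted p = 0.014), so that the subunits, which lie on chromosomes VI and XII, differed by nearly the same amount. *GLN4* had a log2FC of 0.33 (SE 0.10, adjusted p = 0.019). The call of *FRS1* held in all alternatives, that of *FRS2* was lost without replicate 2 of *sup35-218* (log2FC 0.34, adjusted p = 0.071), and that of *GLN4* was lost without replicate 1 of *sup35-218* (log2FC 0.32, adjusted p = 0.054). *GLN4* overlaps an open reading frame on the other strand over 14.7% of its length, which had 18 counts in all cultures together beside 5714 for *GLN4*, and the strand setting of the counting step is not given in the sources used here.

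The 8 cytosolic genes without a call had log2FC between -0.23 and 0.15. They were *CRS1* for cysteine (-0.23), *MES1* for methionine (-0.23), *GRS1* (-0.21) and *GRS2* (-0.20) for glycine, *WRS1* for tryptophan (-0.16), *GUS1* for glutamate (-0.04), *ALA1* for alanine (0.00) and *SES1* for serine (0.15). *MES1* had 246, 246 and 208 CPM in *sup35-218* cultures, against 272, 269, 282 and 269.7 CPM in *SUP35* cultures of stage 3. These levels did not overlap, and neither did those of *GRS2*, with an adjusted p of 0.068 for *MES1* and 0.082 for *GRS2*. DESeq2 called *MES1* (adjusted p = 0.038). *SES1* was called as higher when replicate 4 of *SUP35* at stage 3, its highest culture at 434 CPM beside 256 to 313 CPM in the others, was left out (log2FC 0.33).

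Among the mitochondrial enzymes, *MSY1* for tyrosine (XVI, 364952 to 366430, forward) rose most, with 57.2, 50.4 and 46.9 CPM in *sup35-218* cultures, against 35.6, 30.5, 35.3 and 42.8 CPM in *SUP35* cultures of stage 3 (log2FC 0.51, SE 0.13, adjusted p = 0.0082). It just passed the DEG cutoff, while *MSE1* for glutamate (log2FC 0.48, SE 0.13, adjusted p = 0.0097) and *AIM10* for proline (log2FC 0.48, SE 0.15, adjusted p = 0.024) stayed just under it. Leaving out replicate 4 of *SUP35* at stage 3 made all of these DEGs, 3 in place of 1. Without replicate 2 of *SUP35* at stage 3 or replicate 1 of *sup35-218* the mitochondrial genes held 2 DEGs, and without replicate 2 of *sup35-218* 3 DEGs. The calls of *MSY1* and *MSE1* held in all alternatives, but *AIM10* was not called without replicate 3 of *SUP35* at stage 3 (log2FC 0.38, adjusted p = 0.069) or replicate 3 of *sup35-218* (log2FC 0.47, adjusted p = 0.061). Against *SUP35* at stage 1, *MSE1* was called, but *MSY1* (log2FC 0.15, adjusted p = 0.39) and *AIM10* (log2FC 0.24, adjusted p = 0.25) were not. Over 28.3% of its length, *AIM10* overlaps an antisense open reading frame that had 111 counts in all cultures, beside 1304 for *AIM10*.

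The only mitochondrial gene that fell was *MSK1* for lysine (XIV, 488386 to 490116, forward), at 151, 161 and 131 CPM in *sup35-218* cultures, against 179, 197, 172 and 200.4 CPM in *SUP35* cultures of stage 3 (log2FC -0.34, SE 0.10, adjusted p = 0.015). Its levels did not overlap, but the call was lost without replicate 2 of *SUP35* at stage 3 (log2FC -0.28, adjusted p = 0.062), replicate 1 of *sup35-218* (-0.32, adjusted p = 0.054) or replicate 3 of *sup35-218* (-0.23, adjusted p = 0.12). The other 10 mitochondrial genes had log2FC between -0.13 and 0.24. In order they were *DIA4* for serine (-0.13), *MSD1* for aspartate (-0.13), *MSR1* for arginine (-0.11), *MST1* for threonine (-0.08), *MSW1* for tryptophan (-0.02), *MSM1* for methionine (-0.01), *NAM2* for leucine (0.09), *ISM1* for isoleucine (0.14), *SLM5* for asparagine (0.20) and *MSF1* for phenylalanine (0.24). Without replicate 4 of *SUP35* at stage 3, *MSF1* was called as higher (log2FC 0.31, adjusted p = 0.017). The standard errors of these log2FC were 0.10 to 0.16 over the mitochondrial genes and 0.09 to 0.16 over the cytosolic ones, so that the lower level of the mitochondrial mRNAs came with a similar precision.

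**Figure D3:**
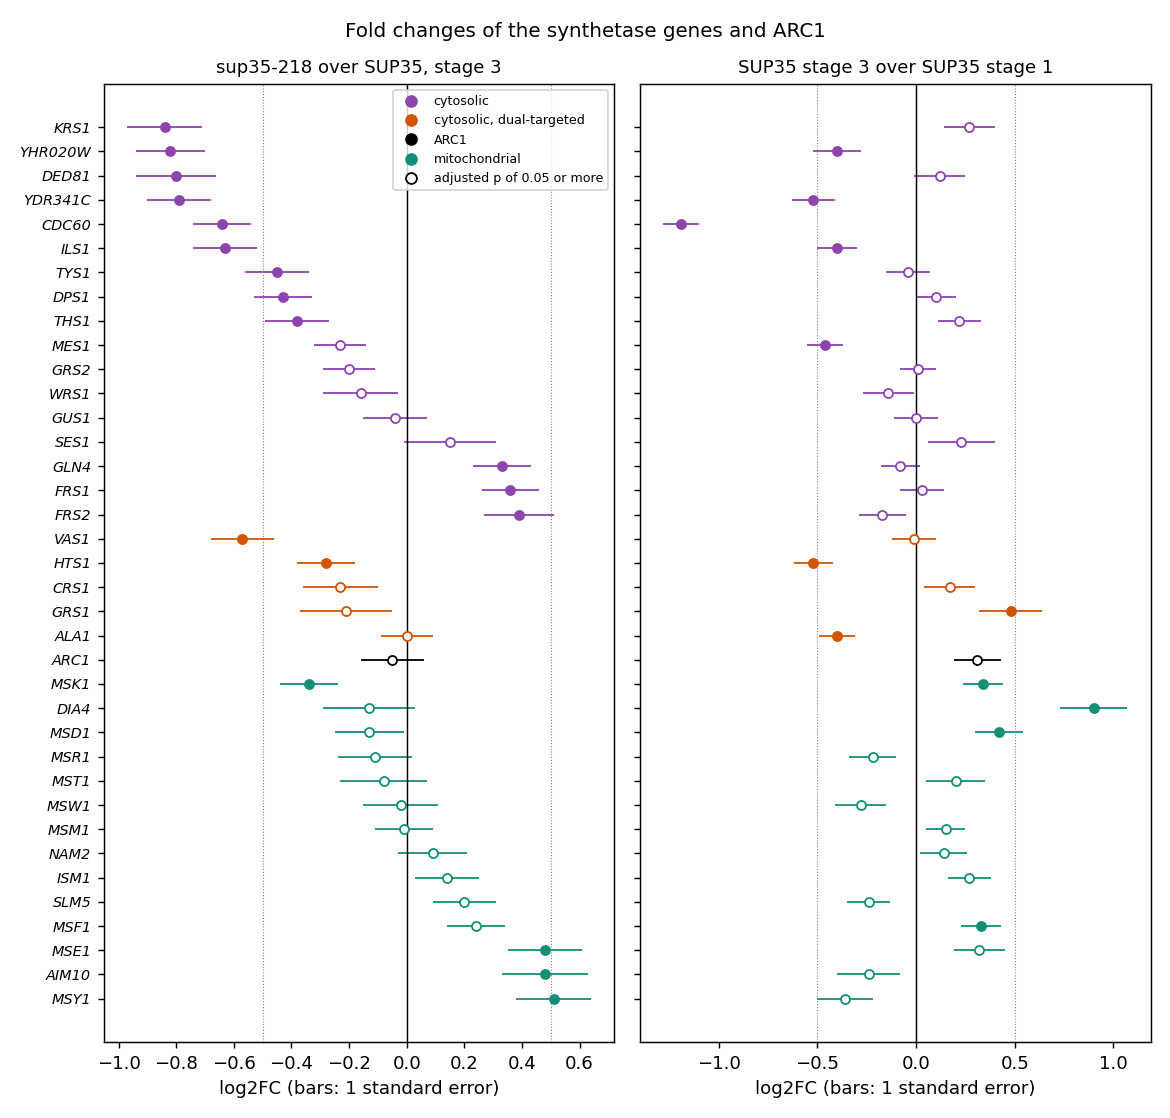
Log2FC of the 37 genes between *sup35-218* and *SUP35* at stage 3 (left) and between *SUP35* at stage 3 and stage 1 (right), with bars of 1 standard error, filled symbols for adjusted p under 0.05 (edgeR) and dotted lines at 0.5 in either direction. In the left panel 7 cytosolic genes lie beyond the lower line, from *VAS1* (-0.57) to *KRS1* (-0.84), and in the right panel *CDC60* (-1.19) lies furthest out.

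For 14 amino acids a cytosolic and a separate mitochondrial enzyme exist, which gives 15 pairs because the cytosolic phenylalanine enzyme has a pair of subunits. Within each culture, the log2 ratio of cytosolic to mitochondrial CPM per kb does not depend on the scaling of the library. It was lower in every *sup35-218* culture than in every *SUP35* culture of stage 3 in 8 pairs, higher in 1 pair and overlapping in 6. The median difference of the group means was -0.51, with a range from -1.33 to 0.29. No test was made over the pairs, whose genes were each tested above. *MSF1* enters both phenylalanine pairs. Ratios of other gene pairs were not computed, so no background share stands beside these counts. For single genes, 22.8% of all genes tested separated as lower and 20.9% as higher between these groups.

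The largest difference was in the proline pair, *YHR020W* over *AIM10*, which moved at both ends. Its log2 ratio was 2.54, 2.75 and 2.20 in *sup35-218* cultures, against 4.21, 3.50, 4.11 and 3.50 in *SUP35* cultures of stage 3. The asparagine pair, *DED81* over *SLM5*, came next with a difference of -1.02, followed by the tyrosine pair, *TYS1* over *MSY1*, with -0.98. In the lysine pair, *KRS1* over *MSK1*, both genes fell, and the difference was -0.51, with 3.14, 3.28 and 3.10 in *sup35-218* cultures, against 3.76, 3.69, 3.80 and 3.51 in *SUP35* cultures. The pair that was higher in *sup35-218* cultures was *SES1* over *DIA4* for serine, with 2.86, 2.66 and 2.50, against 2.48, 2.37, 2.23 and 2.46 in *SUP35* cultures, a difference of 0.29 between genes that were not called themselves. The pairs for aspartate, methionine, phenylalanine (both subunits), threonine and tryptophan overlapped.

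**Figure D4:**
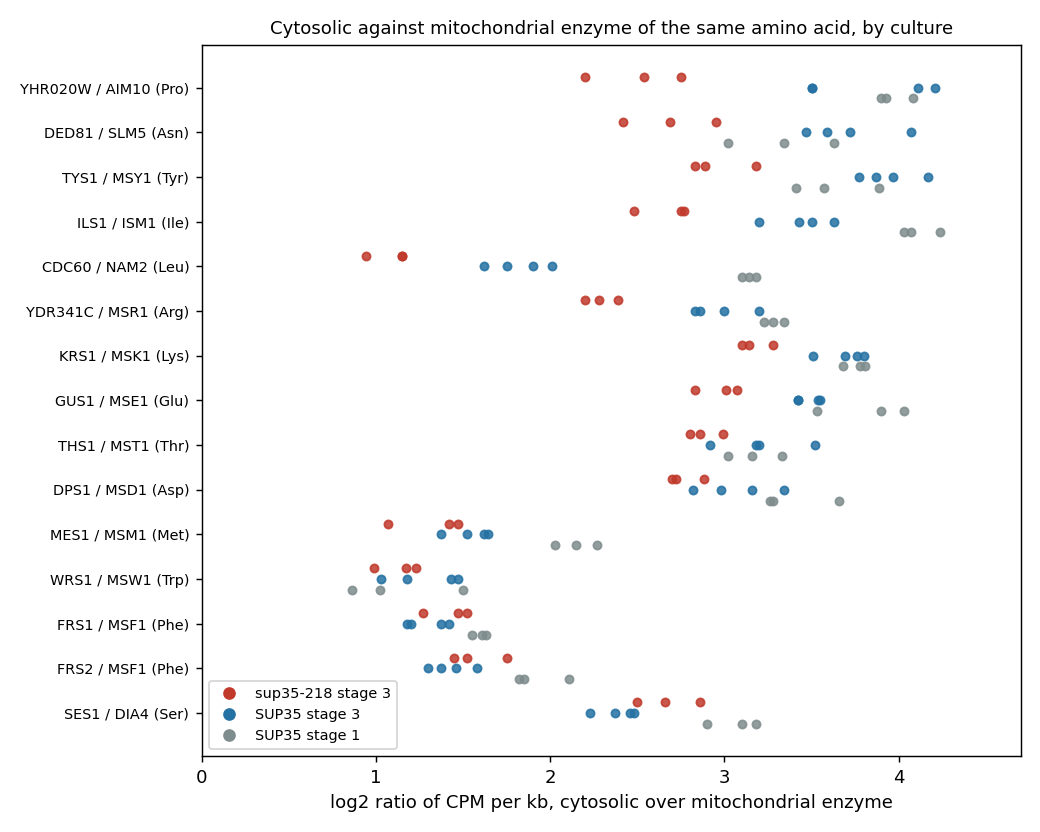
Log2 ratio of CPM per kb of the cytosolic over the mitochondrial enzyme for the same amino acid in single cultures, with 1 row for each of the 15 pairs. The *sup35-218* cultures lie left of both *SUP35* groups for proline, asparagine, tyrosine, isoleucine, leucine, arginine, lysine and glutamate, and for leucine the 3 groups are separate, with means of 1.08, 1.82 and 3.14.

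Between *SUP35* cultures of stage 3 and stage 1, which carry the same allele, 7 of the 22 cytosolic genes fell, 1 rose and 14 were not called. Over all genes tested, 12.8% fell and 12.7% rose, 25.4% in all. Of the 14 mitochondrial genes, 4 rose, 0 fell in edgeR's test (3 at an unadjusted p under 0.05, and 0 in DESeq2), and 10 were not called. With the DEG cutoff there were 3 lower cytosolic genes and 1 higher mitochondrial gene, where 6.63% of all genes tested were lower and 7.21% higher DEGs. The median log2FC was -0.03 for cytosolic and 0.18 for mitochondrial genes, beside 0.00 for all genes tested. Levels did not overlap for 7 lower and 3 higher cytosolic genes and for 2 lower and 5 higher mitochondrial genes, where 17.5% and 15.5% of all genes tested separated in these directions. Without replicate 4 of *SUP35* at stage 3 the mitochondrial median was 0.07, and 3 mitochondrial genes rose and 2, *MSW1* and *MSY1*, fell.

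*CDC60*, for leucine, differed more between these groups than any other of the 37 genes. It had 441, 432, 442 and 462 CPM at stage 3, against 1001, 1002 and 1039 CPM at stage 1 (log2FC -1.19, SE 0.09, adjusted p = 3.1e-06), and the cultures of each group lay close together. Stage 3 cultures grew without leucine and had the *LEU2* plasmid, a gene of leucine synthesis, with 1733 to 2743 CPM of *LEU2* at stage 3, against 1434 to 1853 CPM at stage 1. The parts of medium, marker and stage in this difference cannot be told apart. *NAM2*, the mitochondrial leucine enzyme, was not called (log2FC 0.14, adjusted p = 0.43), and the log2 ratio of *CDC60* over *NAM2* was 1.90, 1.75, 2.01 and 1.62 at stage 3, against 3.10, 3.14 and 3.18 at stage 1.

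The other lower DEGs at stage 3 were *YDR341C* and *HTS1*. *YDR341C* had 465, 403, 388 and 425 CPM at stage 3, against 617, 583 and 612 CPM at stage 1 (log2FC -0.52, SE 0.11, adjusted p = 0.0034). *HTS1* had 362, 360.2, 329 and 381 CPM at stage 3, against 521, 500.1 and 517 CPM at stage 1 (log2FC -0.52, SE 0.10, adjusted p = 0.002). Neither gene overlapped between the groups, and both calls held in all alternatives. *MES1* (log2FC -0.46, adjusted p = 0.0034), *ALA1* (-0.40, adjusted p = 0.0056), *ILS1* (-0.40, adjusted p = 0.013) and *YHR020W* (-0.40, adjusted p = 0.025) also fell. The call of *ILS1* was lost without replicate 1 or 2 of *SUP35* at stage 1 (adjusted p = 0.051 and 0.063), and that of *YHR020W* without any of the stage 1 cultures or replicate 2, 3 or 4 of *SUP35* at stage 3 (adjusted p up to 0.068, log2FC -0.42 to -0.36). *KRS1*, in contrast to its fall in *sup35-218* cultures, had a log2FC of 0.27 between the *SUP35* groups that did not pass the test (adjusted p = 0.14).

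The only cytosolic gene that rose at stage 3 was *GRS1* for glycine (II, 481364 to 483367, reverse), the gene with the upstream TTG start shown above. It had 564, 774, 564 and 864 CPM at stage 3, against 462, 461 and 563 CPM at stage 1 (log2FC 0.48, SE 0.16, adjusted p = 0.038). The lowest stage 3 cultures, at 564 CPM, lay next to the highest stage 1 culture, at 563 CPM, and the call was lost without replicate 2 or 4 of *SUP35* at stage 3 (adjusted p = 0.099 and 0.092) or replicate 1 or 2 of stage 1 (adjusted p = 0.13 and 0.14). In *sup35-218* cultures *GRS1* had 563, 655 and 576 CPM, which overlap the levels of *SUP35* cultures of stage 3. Its paralog *GRS2* had 105, 105 and 113 CPM in *sup35-218* cultures, 116, 124, 121 and 134 CPM in *SUP35* cultures of stage 3 and 125, 119 and 126 CPM at stage 1, and was called in no comparison. The longest identical run shared by *GRS1* and *GRS2* is 17 bases, and they share 0 sequences of 31 bases and so have no such stretch in common.

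The mitochondrial serine enzyme *DIA4* (VIII, 127780 to 129120, forward) rose most at stage 3. It had 44.3, 58.6, 55.9 and 76.1 CPM at stage 3, against 26, 32.6 and 35.6 CPM at stage 1 (log2FC 0.90, SE 0.17, adjusted p = 0.002). Leaving out each culture in turn gave a log2FC of 0.75, without replicate 4 of *SUP35* at stage 3, to 1.02, and the call held throughout. *MSD1* for aspartate (log2FC 0.42, adjusted p = 0.02), *MSK1* for lysine (0.34, adjusted p = 0.022) and *MSF1* for phenylalanine (0.33, adjusted p = 0.033) rose too. These calls were fragile, since without replicate 1 of *SUP35* at stage 1 only 1 mitochondrial gene, *DIA4*, was called as higher, with *MSD1* at an adjusted p of 0.096, *MSK1* at 0.06 and *MSF1* at 0.089. *MSK1* and *MSF1* were also lost without replicate 2 or 3 of stage 1 or replicate 2 of *SUP35* at stage 3 (adjusted p from 0.052 to 0.11), and *MSF1* without its replicate 4 (adjusted p = 0.07). Without replicate 3 of stage 1, or without replicate 2 of *SUP35* at stage 3, 2 mitochondrial genes were called as higher. *MSY1* had the most negative log2FC of its compartment, -0.36 (SE 0.14, adjusted p = 0.066), with 35.6, 30.5, 35.3 and 42.8 CPM at stage 3, against 40.2, 47.5 and 50.9 CPM at stage 1. Without replicate 4 of *SUP35* at stage 3, *MSY1* (log2FC -0.45, adjusted p = 0.029) and *MSW1* (log2FC -0.41, adjusted p = 0.014) were called as lower.

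**Figure D5:**
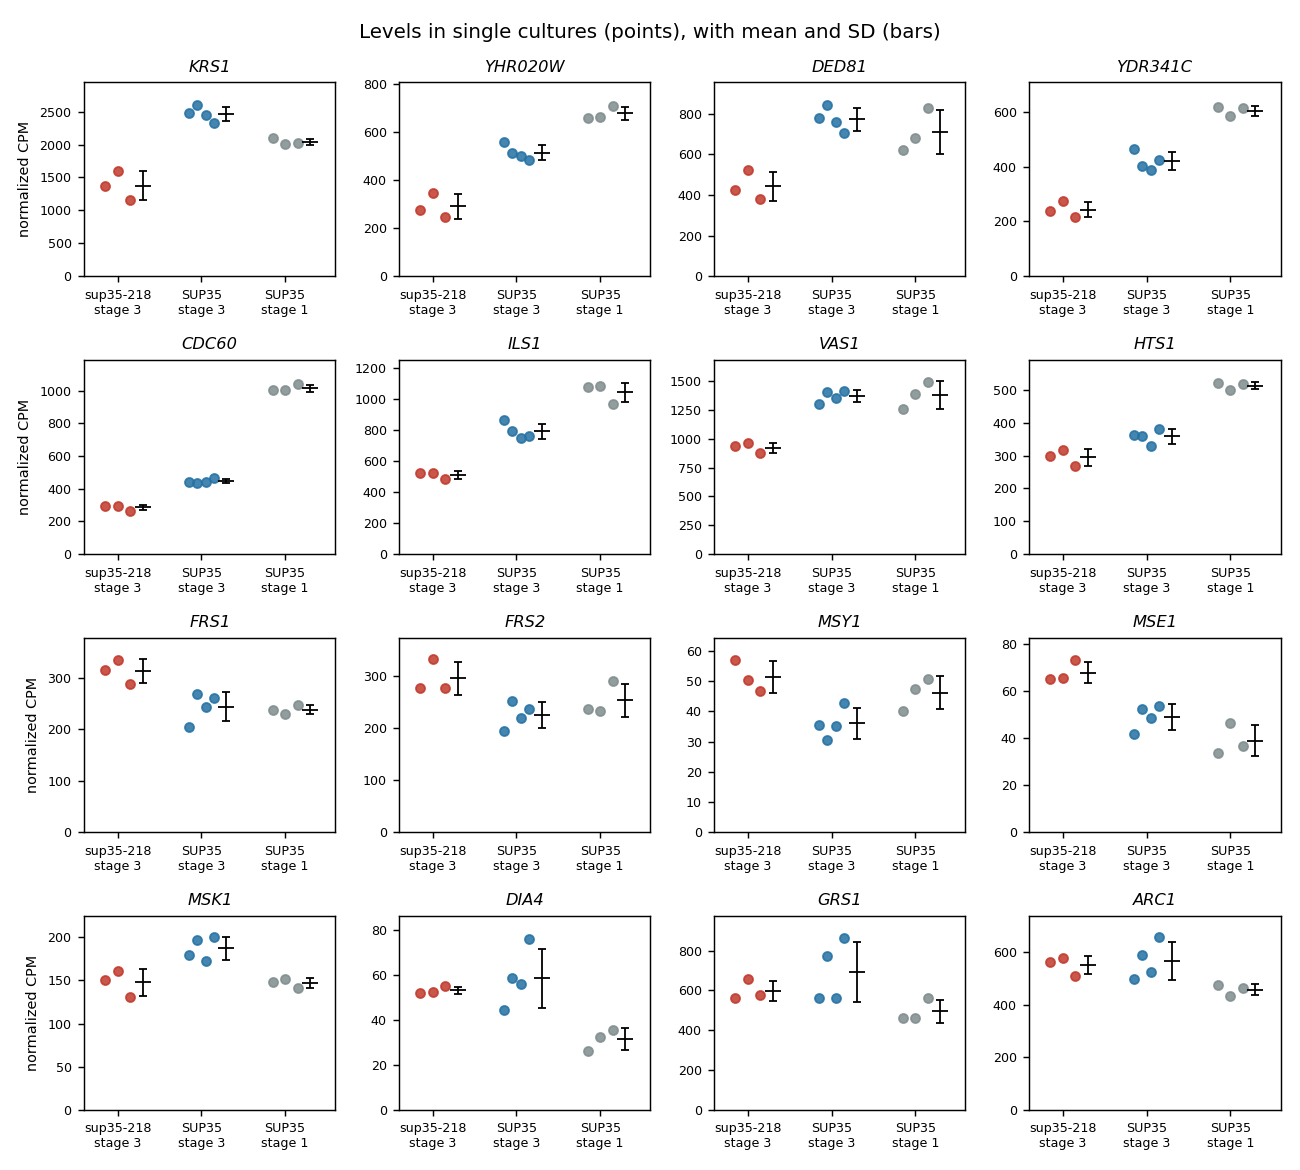
Normalized CPM of 16 of the 37 genes in single cultures (points) of the groups *sup35-218* at stage 3 and *SUP35* at stages 3 and 1, with the mean and SD of each group beside its points, on axes from 0. *CDC60* has a separate level in each group (means of 285, 444 and 1014 CPM), *KRS1* has its lowest levels in *sup35-218* cultures (1373, 2466 and 2042 CPM), and *DIA4* is low at stage 1 (53.3, 58.7 and 31.4 CPM).

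Compared with *SUP35* cultures of stage 1, from which *sup35-218* cultures differ in allele, marker, medium and stage, 12 cytosolic genes fell in *sup35-218* cultures, 1 rose and 9 were not called. Over all genes tested, 23.3% fell and 22.9% rose, 46.3% in all. Of the mitochondrial genes 4 rose and 0 fell in edgeR's test, with 2 lower at an unadjusted p under 0.05 and 0 in DESeq2. The cytosolic genes held 9 lower DEGs and the mitochondrial ones 3 higher DEGs, where 16.5% of all genes tested were lower and 14.7% higher DEGs. The median log2FC was -0.37 for cytosolic and 0.19 for mitochondrial genes, beside 0.04 for all genes tested. The 1 higher cytosolic gene was *FRS1* (log2FC 0.40, adjusted p = 0.011), and 2 were called without replicate 3 of stage 1 or replicate 2 or 4 of *SUP35* at stage 3, and 3 without replicate 1 of *SUP35* at stage 3. One mitochondrial gene was called as lower without replicate 4 of *SUP35* at stage 3 (*MSW1*, log2FC -0.30) or replicate 2 of *sup35-218* (*MSR1*, log2FC -0.41). Levels did not overlap for 15 lower and 3 higher cytosolic genes and for 2 lower and 7 higher mitochondrial genes, where 28.1% and 28.4% of all genes tested separated in these directions. The ratio of the cytosolic to the mitochondrial enzyme was lower in all *sup35-218* cultures than in all stage 1 cultures in 14 of the 15 pairs, with tryptophan as the exception, and the median difference was -0.64. No background share was computed for pairs, which use again the genes already counted. This comparison shares its cultures with the 2 above, so the values below are given side by side and not as separate evidence.

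The genes differed in how these values compared. Both stage 3 strains were made from the initial strain by plasmid shuffling, so the comparisons are not successive steps. Within 1 fit the last 2 values of each gene add up to the first, apart from rounding. *CDC60* had a log2FC of -1.83 between *sup35-218* and *SUP35* at stage 1, beside -0.64 between the alleles at stage 3 and -1.19 between the *SUP35* groups. For *YDR341C* the values were -1.32, -0.79 and -0.52, for *YHR020W* -1.22, -0.82 and -0.40, and for *ILS1* -1.03, -0.63 and -0.40. These 4 genes, for leucine, arginine, proline and isoleucine, were called as lower in each comparison. So was *HTS1* (-0.80, -0.28 and -0.52), whose call between the alleles was the least stable. *DED81* (-0.68, -0.80 and 0.12), *VAS1* (-0.58, -0.57 and -0.01) and *KRS1* (-0.57, -0.84 and 0.27) were called between the alleles and not between the *SUP35* groups. *MES1* (-0.69, -0.23 and -0.46) and *ALA1* (-0.40, 0.00 and -0.40) were called between the *SUP35* groups and not between the alleles at stage 3. Some genes called between the alleles at stage 3 were not called against stage 1. The cytosolic ones were *THS1* (-0.16, -0.38 and 0.22), *FRS2* (0.22, 0.39 and -0.17) and *GLN4* (0.25, 0.33 and -0.08). The mitochondrial ones were *MSY1* (0.15, 0.51 and -0.36), *AIM10* (0.24, 0.48 and -0.24) and *MSK1* (0.00, -0.34 and 0.34). Among mitochondrial genes, *MSE1* (0.79, 0.48 and 0.32), *DIA4* (0.76, -0.13 and 0.90), *MSF1* (0.57, 0.24 and 0.33) and *ISM1* (0.41, 0.14 and 0.27) rose in *sup35-218* cultures over stage 1.

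*ARC1* encodes a cofactor that binds the methionine enzyme Mes1 and the glutamate enzyme Gus1 and brings tRNA to them. It had 564, 576 and 511 CPM in *sup35-218* cultures, 497, 589.8, 525 and 659.5 CPM in *SUP35* cultures of stage 3 and 474, 435 and 464 CPM at stage 1. Its log2FC between the alleles at stage 3 was -0.05 (adjusted p = 0.78), and that between the *SUP35* groups was 0.31 (edgeR adjusted p = 0.061). DESeq2 (log2FC 0.31, adjusted p = 0.03), upper-quartile scaling (0.34, adjusted p = 0.045) and the fit without replicate 1 of *SUP35* at stage 3 (0.38, adjusted p = 0.027) called *ARC1* as higher between the *SUP35* groups. Against stage 1, *ARC1* was called in *sup35-218* cultures without their replicate 3 (log2FC 0.36, adjusted p = 0.049), without replicate 1 of *SUP35* at stage 3 (0.31, adjusted p = 0.037) or with upper-quartile scaling (0.33, adjusted p = 0.039). *GUS1* had 688, 726 and 685 CPM in *sup35-218* cultures, 633, 733, 679 and 828 CPM in *SUP35* cultures of stage 3 and 725, 701 and 722 CPM at stage 1, and its log2FC lay between -0.04 and 0.00 in the 3 comparisons. *MES1*, with the stage 3 levels given above, had 401, 361 and 364 CPM at stage 1. In edgeR's test *MES1* was called between the *SUP35* groups, and *ARC1* and *GUS1* were not.

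Split by class, the 10 cytosolic class I genes had 1 higher and 5 lower calls between the alleles at stage 3, and the 12 class II genes had 2 higher and 6 lower calls, with medians of -0.34 and -0.25. In that comparison 18.5% of all genes tested rose and 20.7% fell. Between the *SUP35* groups the sums differed by class. Class I genes summed to 4967 to 5407 CPM at stage 3, against 6164 to 6394 CPM at stage 1, with no overlap. Class II genes summed to 7146 to 7919 CPM at stage 3 and 6866 to 7370.2 CPM at stage 1, which overlap. Single genes weigh heavily on these sums. *CDC60* of class I had means of 444 CPM at stage 3 and 1014 CPM at stage 1. *KRS1* of class II, which was not called, had means of 2466 and 2042 CPM. *CDC60*, *YDR341C*, *ILS1* and *MES1*, all of class I, make up the 4 class I calls of that comparison, all lower. The 12 class II genes had 3 lower calls and 1 higher, so that 40% of class I and 33.3% of class II genes were called, where 12.8% of all genes tested fell and 12.7% rose. No test of the difference between the classes was made.

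The sequence TGACTC, the core of the site that Gcn4 binds, was searched on both strands in the 250 bases before the start codon and the first 50 bases from it. It was found in 9 of the 22 cytosolic genes (40.9%), in 0 of the 14 mitochondrial genes and upstream of *ARC1*, against 8.22% of the 5670 protein-coding genes tested that have such a window. The longer form TGACTCA was found in 3 cytosolic genes (13.6%), against 2.82% of all. The matches in the genes that fell furthest, with 12 bases on either side and the motif in capitals, are shown because *KRS1*, *YHR020W*, *YDR341C*, *ILS1* and *VAS1* are 5 of the 7 lower DEGs. They are written on the strand of the gene, so that GAGTCA is the motif on the other strand, and come from the S288C genome of RefSeq (R64) at IV 525294 to 525323, VIII 143802 to 143831, IV 1153809 to 1153838 (reverse), II 84346 to 84375 (reverse) and VII 672076 to 672105.
KRS1: tgaatgatgaaaTGACTCttaatgaacttc
YHR020W: taagcgatgcttGAGTCActgaatgtcttg
YDR341C: aaagtgtctaatGAGTCAgttatttctttc
ILS1: tcgaaacaatgaTGACTCttaagcatgaaa
VAS1: atttttttagaaGAGTCAcccatacagcct
The remaining cytosolic matches were in *THS1*, *CRS1*, *ALA1* and *GLN4*, the last of them inside the coding sequence.

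*CDC60* and *DED81*, the other lower DEGs, had no match in this window. *DED81* and *YHR020W* face away from each other, and the match shown for *YHR020W* lies between them, just outside the window of *DED81*. Of the 9 cytosolic genes with a match, 6 fell and 1 rose between the alleles at stage 3, with a median log2FC of -0.57. Of the 13 without a match, 5 fell and 2 rose, with a median of -0.21. Over all genes tested, 20.7% fell and 18.5% rose. Of the 466 protein-coding genes tested that have a match, 38% fell and 11.2% rose, with a median of -0.19, and of the 5204 without one, 19% fell and 19.6% rose, with a median of 0.01. The split was not particular to the alleles. Between the *SUP35* groups, 4 of the 9 cytosolic genes with a match fell and 0 rose, and 3 of the 13 without fell and 1 rose. Over protein-coding genes, 24.5% with a match fell and 9.66% rose, against 12% and 12.9% without. Against stage 1, 44.2% of *sup35-218* genes with a match fell and 13.9% rose, against 21.5% and 24.3% without. A match is a stretch of letters and not a measured binding site. *GCN4* mRNA itself had 895, 858 and 760.1 CPM in *sup35-218* cultures, against 975, 939.9, 895 and 851 CPM in *SUP35* cultures of stage 3, and was not called (log2FC -0.13, adjusted p = 0.39). Gcn4 is controlled mainly in translation, which these counts do not measure. *GCN2*, for the kinase that senses uncharged tRNA, fell, with 177, 192 and 193 CPM in *sup35-218* cultures, against 273, 290.0, 285 and 287 CPM in *SUP35* cultures (log2FC -0.60, SE 0.09, adjusted p = 0.00021). *GCN2* was also called as lower in *SUP35* cultures of stage 3 than in those of stage 1 (log2FC -0.28, adjusted p = 0.031). Its log2FC between *sup35-218* and *SUP35* at stage 1 was -0.88 (adjusted p = 8e-06).

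Other genes that act on tRNA or in mitochondrial protein synthesis were counted beside the synthetases. Of 11 genes for tRNA splicing, end maturation, editing and export, 2 rose between the alleles at stage 3 and 0 fell in edgeR's test (1 at an unadjusted p under 0.05, and 0 in DESeq2), where 18.5% of all genes tested rose. Those that rose were *TPT1*, whose product ends tRNA splicing (log2FC 0.40, adjusted p = 0.023), and *LHP1*, which binds tRNA precursors (0.37, adjusted p = 0.035). Of 11 genes for translation factors and tRNA-modifying enzymes of the mitochondrion, 3 rose and 0 fell, likewise with 1 lower gene at an unadjusted p under 0.05 and 0 in DESeq2. *MEF2*, a mitochondrial factor of the elongation factor G family, had 69.9, 72.2 and 65 CPM in *sup35-218* cultures, against 40.3, 46.6, 47.4 and 52.8 CPM in *SUP35* cultures of stage 3 (log2FC 0.56, SE 0.11, adjusted p = 0.0017). *GUF1*, a mitochondrial GTPase that binds ribosomes, had 47.6, 47.8 and 56.4 CPM, against 30.6, 36.5, 32.7 and 41.2 CPM (log2FC 0.53, SE 0.14, adjusted p = 0.0087). The levels of both genes were higher in every *sup35-218* culture. The medians over these lists were 0.08 and 0.01 on the log2 scale, beside -0.26 over the cytosolic synthetases.

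The genes lie on 13 chromosomes, and shifts of whole chromosomes were looked for. The median log2FC of all genes on a chromosome lay between -0.07 and 0.05 between the alleles at stage 3. It lay between -0.07 and 0.04 between the *SUP35* groups, and between -0.03 and 0.11 for *sup35-218* over *SUP35* at stage 1. Such a median does not show a gain of part of a chromosome, and the part of copy number in the changes above was not tested.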

How the data were processed

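Per the study's methods and the submitters' processing notes, read pairs of 150 nucleotides from directional libraries were trimmed with Trimmomatic, aligned to the S288C genome (R64-3-1) with HISAT2 and counted per gene with featureCounts; their versions and the strand setting are not given in the sources used here. The authors deposited raw read counts of 6607 genes in 10 cultures, as whole numbers without normalization, and all columns were used. The 28 genes of the mitochondrial genome had no counts.

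Counts were normalized by TMM and filtered with filterByExpr (minimum count 10), and 5856 genes were fitted in 1 model of 3 groups with edgeR 4.0.16 (R 4.3.3, limma 3.58.1). Contrasts were tested by quasi-likelihood with Benjamini-Hochberg adjustment over these genes, and every adjusted p of a gene in the text is from this test unless DESeq2 is named. Standard errors of log2FC were obtained as the absolute log2FC over the square root of F. The test was first run on simulated counts with known changes, whose spread followed only the level of a gene. The outcome is not given here and is not used as support for the results. Total counts of 3044096 to 4861009 set the precision, and errors come from the spread between cultures. CPM are scaled by TMM-corrected library size, and CPM per kb use the gene length in the table.

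The genes, the lists beside them and the tests were chosen with earlier results of these data known. Values of single cultures are given for DEGs of the stage 3 or the *SUP35* comparison, for the largest rise and fall in each compartment, and for *GRS1*, *GRS2*, *ARC1*, *MES1* and *GUS1*; *THS1* and others have their log2FC, and the levels of *SES1* were added after they were seen. By systematic name, 5924 genes have an entry in the RefSeq annotation of R64, 99.6% with the same ends, and all 37 genes, *ARC1* among them, matched with the same ends. Alternatives were DESeq2 1.42.0, its size factors or the upper quartile, other filters, fewer groups, the replicate number as a block, glmTreat, and each culture left out in turn.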

Additional observations from a re-analysis of the deposited data

Results flagged for a closer look

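In groups of 4 to 10 samples, the highest or lowest value was compared with its neighbour by Dixon's ratio, the gap divided by the range of the group, and flagged where the ratio was above the 95% critical value. Only *SUP35* at stage 3 has 4 cultures, so 37 such groups were looked at, 1 for each gene, and chance would flag about 1 in 20. One was flagged: *ISM1*, the mitochondrial isoleucine enzyme, had 77 CPM in replicate 4, while the other cultures had 65 to 65.2 CPM (ratio 0.988). The same culture was the highest of its group in 13 of the 14 mitochondrial genes.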

How the results depend on the processing

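None of the 37 log2FC that was called changed sign under the 17 alternatives or after subtraction of the chromosome median; log2FC that were not called changed sign 31 times between the alleles at stage 3, 19 times against stage 1 and 11 times between the *SUP35* groups. Of 666 values in each comparison, 19, 5 and 27 lost the call and 5, 18 and 9 gained it. The cause of the changes below was not tested.

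Between the alleles at stage 3, glmTreat, which tests against the cutoff itself, left 3 cytosolic and 0 mitochondrial DEGs, in place of 7 and 1, and the upper quartile gave 3 mitochondrial DEGs. The cytosolic median was -0.38 without the dual-targeted genes. When single cultures were left out, there were 0 to 1 lower mitochondrial genes and 1 to 3 mitochondrial DEGs. Against stage 1, glmTreat left 5 cytosolic and 0 mitochondrial DEGs, in place of 9 and 3. The upper quartile gave 2 higher cytosolic genes, in place of 1, and a mitochondrial median of 0.26, and a fit of only the groups compared gave 1 lower mitochondrial gene, in place of 0. Without single cultures there were 1 to 3 higher cytosolic genes, 0 to 1 lower mitochondrial genes, and the mitochondrial median was 0.19 to 0.26. Between the *SUP35* groups, glmTreat left 1 cytosolic and 0 mitochondrial DEGs, in place of 3 and 1, and a fit of only these groups gave 0 higher cytosolic genes, in place of 1. Without single cultures there were 0 to 1 higher cytosolic genes, 1 to 5 higher and 0 to 2 lower mitochondrial genes. Unscaled CPM moved no sum by more than 1 SD. The form TGACTCA was in 13.6% of cytosolic genes, 8.11% of the 37 genes and 2.82% of all.

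Replicate numbers recur in the groups but number separate cultures, and the deviations of cultures with the same number did not go together throughout (r of 0.0275, 0.1 and 0.176 between the alleles at stage 3, -0.000628, -0.0522 and -0.242 against stage 1, and 0.408, -0.0044 and -0.177 between the *SUP35* groups). With the number as a replicate block, the alleles at stage 3 differed in 3 mitochondrial DEGs, the comparison with stage 1 gave 2 higher cytosolic and 1 lower mitochondrial genes, and the *SUP35* groups gave 0 higher cytosolic and 2 lower mitochondrial genes. Only *SUP35* at stage 3 has a replicate 4, which then adds nothing to the differences.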
